A study of Homo sapiens with 4 samples.

Results

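In MDA-MB-231 cells, 792 of 20261 m6A peaks ran over 3 or more blocks, that is, over 3 or more stretches of exon separated by gaps in the genome, on protein-coding genes of the nuclear genome. These multi-exon peaks were chosen by the number of blocks and the class of the gene alone, and the strength of a peak was not used. They made up 4.62% of the 17142 peaks on nuclear protein-coding genes and lay on 715 of the 8173 such genes with a peak (8.75%). The remaining peaks of these genes had 1 block (13971) or 2 blocks (2379), and the single-block peaks are the comparison used throughout.

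The peaks came from m6A-seq of poly(A) RNA from MDA-MB-231, an established human triple negative breast cancer line, in cells labelled shNS, a name that the study uses for its control group. Fragmented RNA was sequenced before (input, 2 libraries) and after immunoprecipitation with an anti-m6A antibody (IP, 2 libraries), with no further treatment named. The treatment field of both IP libraries reads IP-YTHDC1, whereas their titles and protocol describe the anti-m6A antibody, and the latter was followed. The 2 replicates of each group were combined into 1 peak list with 1 score per peak, so no spread between replicates can be given, and the read depth is not known. No other condition was listed, and the values below describe 1 set of cells.

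N6-methyladenosine is placed on nascent mRNA by the METTL3-METTL14 complex, preferentially at adenosines in a GGAC-like context, and is bound by YTH-domain readers such as nuclear YTHDC1 and cytoplasmic YTHDF proteins. In human mRNA the mark is known for its concentration in long internal exons and in last exons near the stop codon, and for its depletion close to exon junctions. A peak that crosses several exons was an uncommon shape in this list, and the reason was not tested. It is laid out along the spliced transcript, so its inner blocks are bounded on both sides by a gap, while each terminal block has 1 border set by the peak itself.

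The sequences of exons inside a peak were not used here. Transcript starts could be read from RefSeq (GRCh38.p14), and 100 multi-exon peaks covered all of the first 50 transcribed bases of their gene. Among these, 23 (23.0%, 95% Wilson interval 15.8 to 32.2) held GGAC in that window, and 6 held the longer GGACT, which includes it. A stretch of this window is shown for those 6 peaks because they are the places where the core of the m6A context can be seen inside a multi-exon peak. Each line gives 30 transcribed bases, 5′ to 3′ on the gene's strand, with GGACT in capitals.
EPHA2: attaaGGACTcggggcaggaggggcagaag
MYH10: gtttgGGACTgaggcgctggatctgtggtc
NFU1: actccGGACTaagatggcggcgacggccag
SCAP: agagagggagggcgccacgcaccGGACTgc
LYPLA2: gGGACTcgaacggaagttccggcgggggcg
CTNNA1: ctcctcctagccGGACTggagggagacaaa
The windows start at the first transcribed base, except that of SCAP, which covers bases 21 to 50. On GRCh38.p14 they lie at chr1:16156040-16156069 (EPHA2, minus strand), chr17:8630696-8630725 (MYH10, minus), chr2:69437406-69437435 (NFU1, minus), chr3:47475892-47475921 (SCAP, minus), chr1:23791145-23791174 (LYPLA2, plus) and chr5:138753425-138753454 (CTNNA1, plus). All 6 peaks had 3 blocks. Those of SCAP, CTNNA1, MYH10 and NFU1 began before the RefSeq start, that of SCAP at chr3:47476976 and that of CTNNA1 at chr5:138753165. Their windows therefore need not hold the first bases of the transcript on which the peak was laid out. The peak of EPHA2, an ephrin receptor tyrosine kinase, had a score of 0, and that of MYH10, a non-muscle myosin heavy chain, had 2.5e-60. NFU1, an iron-sulfur cluster scaffold, had 1.3e-32. The other 3 peaks were weak, with 0.0001 for SCAP, the escort protein of the sterol-responsive SREBP factors, 0.00016 for the lysophospholipase LYPLA2 and 0.00068 for CTNNA1 (alpha-catenin). The score is the deposited p-value or FDR of IP over input, so that stronger peaks have smaller scores. GGAC had a similar frequency in the first 50 bases covered by single-block peaks, in 141 of 591 (23.9%), and was found in 3123 of 15859 windows of all promoters in the reference table (19.7%). For GGACT the counts were 30 of 591 (5.08%) and 762 of 15859 (4.80%), against 6.0% for the multi-exon peaks. These shares did not separate the multi-exon peaks from the single-block peaks within their counting error. The letters were searched on the transcript strand only, and a match is not a measured site.

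Most multi-exon peaks had the minimum number of blocks. Exactly 3 blocks were found in 576 (72.7%), 4 in 155, 5 in 30, 6 in 23, 7 in 3, 8 in 4 and 11 in 1. The median spliced length was 328 bases (quartiles 211 and 535, range 61 to 3777), against 210.0 bases for single-block and 269 for 2-block peaks. With the gaps between the blocks, the same peaks extended over a median of 4447 bases of genome and up to 235626. Over all of them the blocks filled 4.48% of the genomic extent.

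The peak with the most blocks was on COL6A1, which encodes a chain of collagen VI. It ran over chr21:45989612-45994201 on the plus strand, and its 11 blocks were, from the 5′ end, 41, 27, 27, 45, 54, 63, 63, 54, 36, 63 and 35 bases long, with a score of 7.9e-33. Peaks with 8 blocks included those on GOLIM4, a Golgi membrane protein, MDN1, an ATPase of ribosome assembly, and TOP1, DNA topoisomerase I. The blocks of GOLIM4 (chr3:168010097-168032751) measured 232, 257, 80, 110, 168, 69, 81 and 322 bases, so that both ends were among the longer blocks. In TOP1 (chr20:41029451-41092538) the ends were shorter, with blocks of 5, 97, 124, 56, 96, 76, 107 and 67 bases. Their scores differed widely, with 1e-109 for GOLIM4, 1.3e-36 for MDN1 and 1.6e-30 for TOP1.

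EIF3A, a subunit of translation initiation factor eIF3, had 7 blocks of 150, 185, 89, 779, 202, 191 and 442 bases and a score of 0. The longest peaks were shaped differently. On NUMA1, a spindle pole protein, 3366 of 3777 bases lay in 1 inner block (chr11:72009320-72016497, minus strand), followed on the 3′ side by blocks of 184, 69 and 68 bases. On BCL9L, a coactivator of beta-catenin, 2290 of 3031 bases lay in 1 inner block, and on NUFIP2, an RNA-binding partner of FMRP, 1725 of 2698. LINGO1 and CHSY1, a leucine-rich repeat membrane protein and a chondroitin synthase, instead ended in long 3′ blocks of 2306 and 1935 bases. FEM1C, a substrate receptor of a ubiquitin ligase, ended in 1412 bases after an inner block of 734. Long multi-exon peaks thus included some built around 1 long exon, either inside the peak or at its 3′ end.

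**Figure D1:**
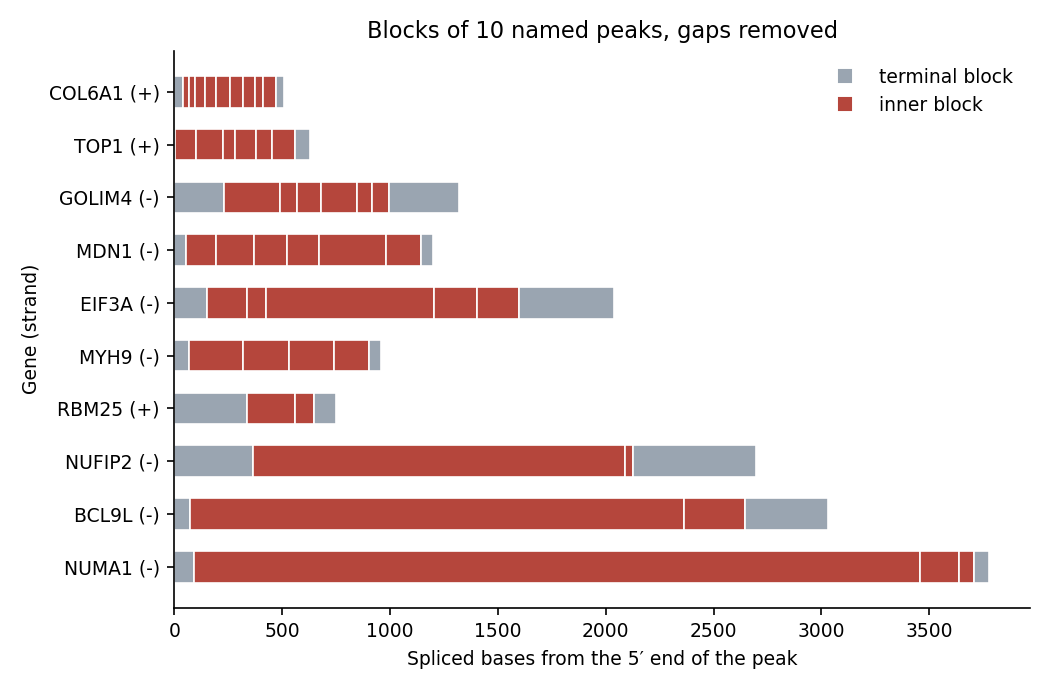
Blocks of 10 named multi-exon peaks, drawn from the 5′ end of each peak with gaps removed (x axis, spliced bases; y axis, gene and strand; red, inner blocks; grey, terminal blocks). COL6A1 is built of 11 short blocks, whereas 1 inner block of 3366 bases fills most of the NUMA1 peak.

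Inner blocks were longer than either terminal block. The median was 61 bases for the 5′ terminal block (quartiles 25 and 117), 107 for the 1116 inner blocks (69.8 and 164) and 58 for the 3′ terminal block (25 and 117). The 5′ and 3′ ends were alike in size, the 5′ block being the longer in 403 peaks, the 3′ block in 388 and neither in 1. Very short blocks were mostly terminal: 88 of the 5′ blocks (11.1%) and 81 of the 3′ blocks (10.2%) were under 10 bases, against 8 inner blocks (0.717%). Up to 30 bases were measured in 29.5% of terminal and 3.67% of inner blocks. In 169 peaks (21.3%) at least 1 block was under 10 bases, and in 53 peaks (6.69%) both ends were at most 30 bases.

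The longest block of a peak was an inner block in 440 peaks (55.6%), the 5′ block in 179 (22.6%) and the 3′ block in 173 (21.8%). With exactly 3 blocks, where 1 block of 3 is inner, it was the inner one in 287 of 576 (49.8%), the 5′ one in 146 and the 3′ one in 143. Inner blocks held 48.3% of all bases of the multi-exon peaks. In 512 peaks (64.6%) a single block held at least as many bases as the others together. A block of 400 bases or more occurred in 138 peaks (17.4%) and was an inner block in 62 (7.83%).

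Block sizes were compared by strand. On plus-strand genes the medians were 47 bases (5′ terminal), 99 (inner) and 54 (3′ terminal), and on minus-strand genes they were 66, 110 and 59. The order of inner above terminal blocks was the same on both strands. Blocks of 400 bases or more were found in 9 of 177 plus-strand peaks (5.08%) and in 129 of 615 minus-strand peaks (21.0%).

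**Figure D2:**
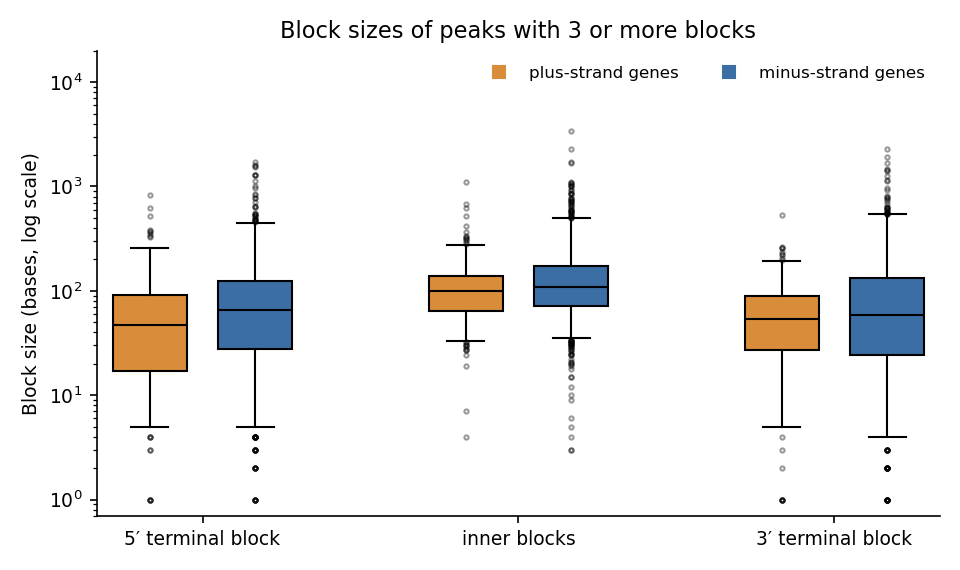
Block sizes (y axis, bases, log scale) of the 792 multi-exon peaks by place in the peak (x axis) and strand (orange, plus; blue, minus). Boxes span the quartiles with the median as a line. Whiskers reach a low and a high percentile of the sizes, and any points lie beyond. Inner blocks are longer than terminal ones on both strands, with medians of 99 and 110 bases.

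Inner blocks were a multiple of 3 bases long in 39.2% (95% Wilson interval 36.4 to 42.1), against 33.5% (31.2 to 35.8) of terminal blocks. By strand the shares were 39.4% (36.2 to 42.7) and 32.9% (30.4 to 35.6) on the minus strand, but 38.6% (32.7 to 44.7) and 35.3% (30.5 to 40.4) on the plus strand, where the intervals overlapped. They were a multiple of 9 in 13.4% of inner (11.6 to 15.6) and 10.2% of terminal blocks (8.83 to 11.8). Collagen genes stood out and were singled out after their values had been seen. Exons of the collagen triple helix are known to be built of 9-base units, each encoding a Gly-X-Y triplet. On 5 collagen genes, 7 multi-exon peaks held 25 inner blocks. All 25 were multiples of 3 and 22 were multiples of 9 (88.0%, 70.0 to 95.8), against 13.5% of inner blocks over all multi-exon peaks after merging. In COL6A2 the inner blocks were 63, 63, 90 and 63 bases long, and in COL18A1 they were 72 and 36. The 3 exceptions were blocks of 66 and 57 bases in COL7A1 and of 33 bases in COL9A2. Of the 14 terminal blocks of these peaks, 1 was a multiple of 9. The 25 collagen blocks are part of the shares over all multi-exon peaks and raise them. After merging, those shares rest on 433 multiples of 3 and 150 multiples of 9 among 1112 inner blocks. Shares without the collagens were not computed, so no excess of inner over terminal blocks is read for the other genes.

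Gaps between neighbouring blocks had a median of 1085 bases (quartiles 334 and 3363, n = 1908), with 736 on plus-strand and 1224 on minus-strand genes. Gaps of at least 10 kb numbered 177 (9.28%). The longest, 184011 bases, was on DACH1, a transcriptional regulator, between a 5′ block of 418 bases and an inner block of 116. BCL2, the inhibitor of apoptosis, followed with 151932 bases between blocks of 41 and 24 bases, and the nuclear receptor gene RORB had a gap of 117616. MICOS10, CREB5 and TBCA, encoding a protein of mitochondrial cristae, a transcription factor and a tubulin-folding cofactor, had gaps of 112321, 109893 and 92272 bases. Of these 6 peaks, 3 had scores above the list median of 5.2e-08, namely BCL2 (0.00042), CREB5 (0.00014) and RORB (1.5e-06). The other 3 were stronger, with 2.5e-11 for TBCA, 6.3e-25 for MICOS10 and 2.5e-86 for DACH1. Those of MICOS10 and TBCA were not wholly inside the RefSeq span of their gene. At the other extreme, 18 gaps in 14 peaks were under 30 bases. The shortest were of 1 base, in DBN1, an actin-binding protein, and in TICAM1, an adaptor of Toll-like receptors. With gaps under 30 bases closed, 780 peaks kept 3 or more blocks, so the rest may not span 3 exons.

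Multi-exon peaks had smaller scores than single-block peaks. Of 792, 631 (79.7%, 76.7 to 82.3) scored at or under the median of the whole list, 5.2e-08, which by construction holds 50.0% of all peaks. The share was 48.8% for single-block peaks, 66.8% for 2-block peaks and 93.1% for peaks with 4 or more blocks. The median −log10 score was 30.7 (quartiles 9.08 and 91.4) in multi-exon peaks, against 7.00 with 1 block and 15.6 with 2. A score of 0, too small to be stored, was found in 61 multi-exon peaks (7.70%) and in 1.99% of single-block peaks.

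Length moved with both the number of blocks and the score, so the 2 kinds of peak were compared within classes of length. Under 150 bases the median −log10 score was 3.62 for multi-exon peaks (n = 25) and 3.13 for single-block peaks. From 150 to 200 bases it was 5.14 (n = 105) against 4.59. The classes above differed by more, with 17.7 against 9.32 from 200 to 300 bases (n = 225), 40.6 against 22.4 from 300 to 500 (n = 221) and 118 against 63.2 from 500 bases (n = 216). Multi-exon peaks thus had the smaller median score in each of the 5 classes. RNA abundance and read depth, on which the score also depends, were not measured per peak, and their part was not tested.

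**Figure D3:**
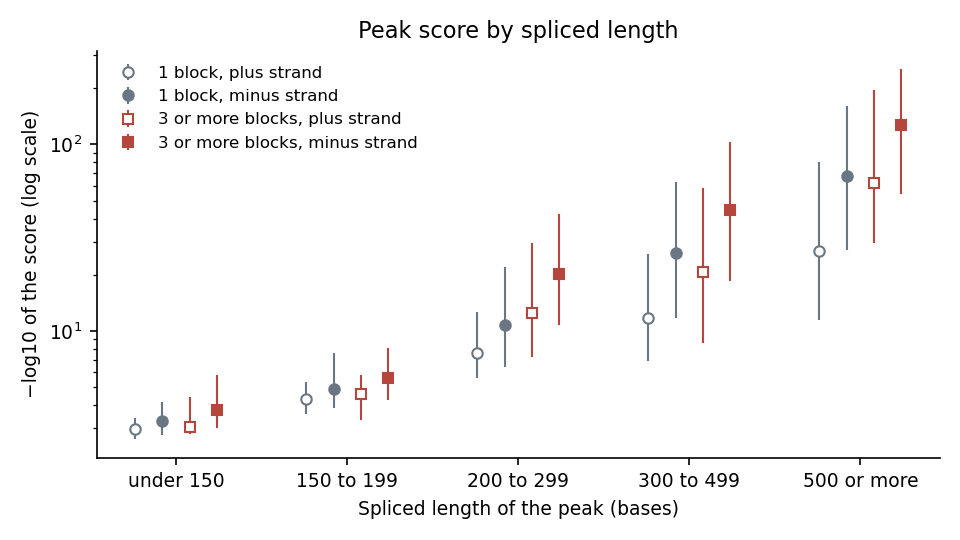
Median −log10 score (y axis) of single-block and multi-exon peaks in 5 classes of spliced length (x axis, bases), for each strand. In both kinds of peak the score grew stronger with length, and over both strands together the multi-exon peaks of 500 bases or more had a median of 118.

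The comparison was also made inside genes, where both kinds of peak come from the same gene. Transcripts of a gene were not told apart. In 449 genes with both kinds, the strongest multi-exon peak had the smaller score in 254 (56.6%, 51.9 to 61.1), the strongest single-block peak in 188, and 7 were tied. The medians were 36.6 and 23.1. The longest peak of each kind in a gene, which need not be the strongest, had a median length of 359 and 298 bases. The multi-exon peak was the stronger in 52 of 77 genes of the plus strand (67.5%, 56.5 to 76.9) and in 202 of 372 of the minus strand (54.3%, 49.2 to 59.3), where the interval included 50%. The medians of 36.6 and 23.1 take only the strongest peak of each kind per gene. The medians over the list, 30.7 and 7.00, take every peak, so the pairs are not directly comparable.

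Of the multi-exon peaks, 615 were on the minus strand and 177 on the plus strand, which put 77.7% on the minus strand (74.6 to 80.4), against 70.6% for single-block and 79.8% for 2-block peaks. Minus-strand peaks were the more numerous on each of the 23 chromosomes with such peaks, a count that was not made for single-block peaks. Strand moved with the score, however. On the minus strand 518 multi-exon peaks (84.2%) scored at or under the list median, with a median −log10 score of 39.0 and a length of 331 bases. On the plus strand 113 (63.8%) did, with 11.1 and 241 bases. The single-block peaks differed by strand in the same direction, with 57.2% and 28.7%.

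Within classes of score, multi-exon and single-block peaks had similar minus-strand shares. At −log10 scores under 5 the shares were 61.8% (51.4 to 71.2, n = 89) and 57.6%, and from 5 to 10 they were 58.3% (49.4 to 66.8, n = 120) and 65.0%. From 10 to 20 they were 78.5% and 78.4%, and from 20 to 50 they were 81.5% (74.7 to 86.8) and 85.7%. From 50 to 100 the share was 85.1% against 89.5%, and from 100 it was 89.1% (83.8 to 92.9) against 93.8% (92.3 to 95.1). The excess of multi-exon peaks on the minus strand over the whole list was thus not found in the 4 classes from 5 to 10, from 20 to 50, from 50 to 100 and from 100, where the multi-exon share was the lower, and it was within the counting error in the other 2.

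**Figure D4:**
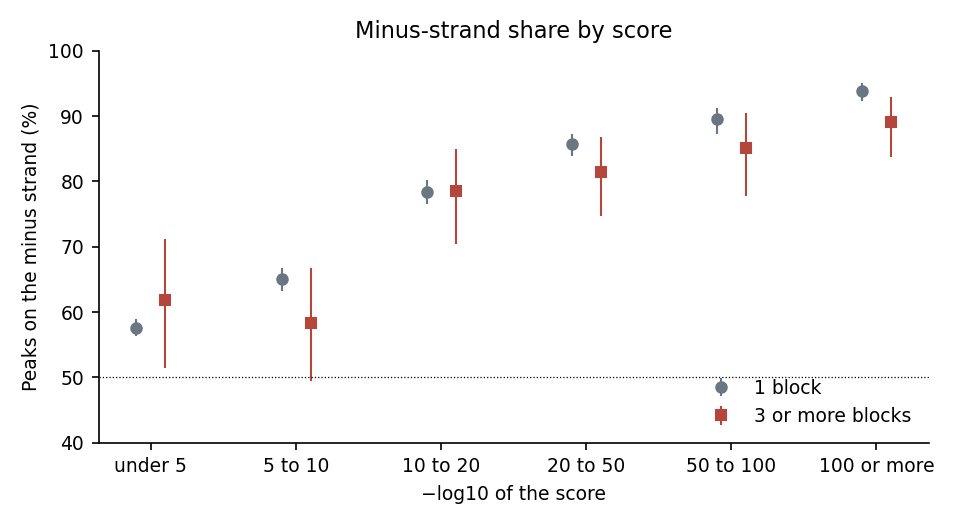
Share of peaks on minus-strand genes (y axis, percent, with 95% Wilson intervals) by class of −log10 score (x axis) for single-block and multi-exon peaks. Both kinds rise from about the same level below 5 to 93.8% and 89.1% in the strongest class.

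A peak overlapped another on the opposite strand in 64 multi-exon peaks (8.08%), against 7.47% of single-block peaks. By strand the 2 kinds were less alike. On the plus strand the share was 19.2% (34 of 177, 14.1 to 25.6), against 10.8% of single-block peaks (9.89 to 11.8). On the minus strand it was 4.88% (30 of 615, 3.44 to 6.88), against 6.07% (5.62 to 6.56). Scores of 0 were tied, and ties went to the longer peak. The plus-strand peak so named, on ZACN (chr17:76080978-76081914, a zinc-activated ion channel gene, score 0, merged from 3 listed peaks), was of this kind and shared bases with peaks of EXOC7 on the minus strand. Which strand its reads came from cannot be told from the list. The longest plus-strand peak with a score of 0 and no such overlap, named after the values had been seen, was on RBM25, a splicing regulator, with blocks of 336, 223, 90 and 100 bases and a score of 0. On the minus strand the longest peak with a score of 0, on NUMA1, also overlapped an opposite peak, and the next longest, on BCL9L, did not.

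Positions were read as the midpoint of a peak between the genomic start and end of its gene, with introns, for the 700 multi-exon and 13172 single-block peaks wholly inside that span, and the span was divided into 10 equal parts. Single-block peaks were concentrated in the last part (41.7%). Only 10.1% of multi-exon peaks (8.12 to 12.6) were centred there. They were spread more evenly, with 9.0% in the first part, between 6.29% and 12% in each of the next 7 and a maximum of 16.6% in the ninth. In the last part, peaks with 2 blocks were between the other kinds, with 19.4%. In the first part they had the largest share, 14.6%, against 12.2% of single-block peaks. For multi-exon peaks the shares of the last part were 13.0% on the plus and 9.34% on the minus strand, and those of the first part 13.6% and 7.69%. The multi-exon peaks extended over a median of 4447 bases of genome, introns included, and the part of this extent in their position was not tested.

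**Figure D5:**
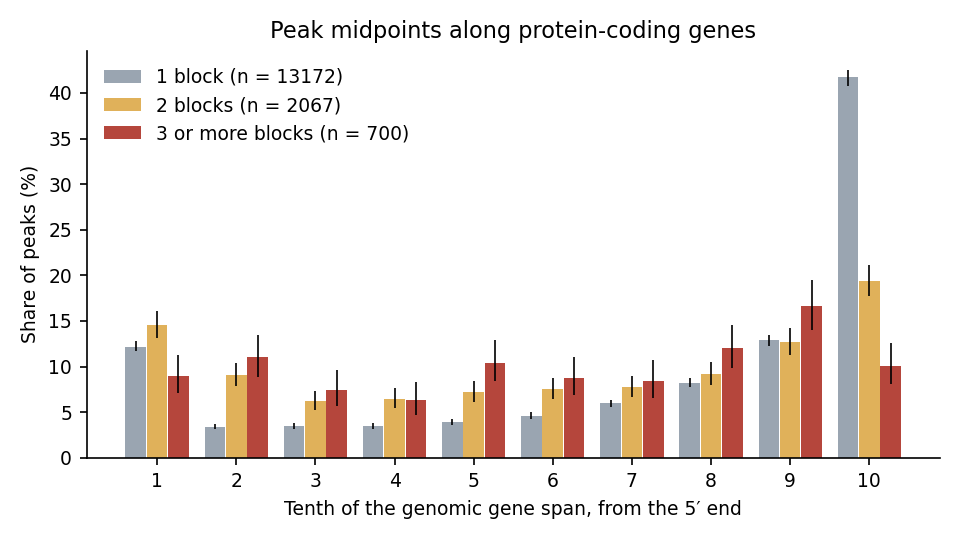
Share of peaks (y axis, percent) by part of the gene span, in 10 equal parts from 5′ to 3′ (x axis), for single-block and multi-exon peaks. Single-block peaks pile up in the last part (41.7%), whereas the multi-exon peaks lie between 6.29% and 16.6% in every part.

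Multi-exon peaks were weaker near the start of the gene. The median −log10 score was 15.4 in the first 3 parts (n = 192), 34.9 in the middle 4 (n = 237) and 42.4 in the last 3 (n = 271). Their median lengths were 285, 330.0 and 331 bases, and the part of length in these scores was not tested. Their contact with the gene's ends was also uneven. At the 5′ end, 115 multi-exon peaks (14.5%, 12.2 to 17.1) started at or before the RefSeq start, against 6.53% of single-block peaks, and 32 of them started exactly there. The 83 that started before it (10.5%, against 4.02% of single-block peaks) were not wholly inside the span and so are missing from the shares by part, which makes the share of 9.0% in the first part too low for peaks at the gene start. At the 3′ end, 12 (1.52%) ended at or past the RefSeq end, against 3.81%.

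The 715 genes were next compared with lists of gene families. These lists were written with earlier results of these data known, so the shares are a description and no test. Against 8.75% of all genes with a peak (8.15 to 9.38), chromatin and transcription cofactors had a multi-exon peak in 14 of 44 (31.8%, 20% to 46.6%). They included the SWI/SNF subunits SMARCA4, SMARCC1 and SMARCC2, the CHD remodelers CHD2, CHD3 and CHD4, the corepressor NCOR1 and the DNA methyltransferase DNMT1. The peak of DNMT1 had 6 blocks of 9, 85, 35, 88, 35 and 19 bases and a score of 1e-273, and a peak of SMARCC2 had 4 blocks of 39, 65, 136 and 151 bases and a score of 0. Genes of the cytoskeleton, motors and crosslinkers had one in 9 of 33 (27.3%, 15.1 to 44.2), with myosins (MYH9, MYH10, MYO6, MYO10, MYO18A), talin (TLN1) and NUMA1 among them. The number of exons per gene was not measured here, and its part in these shares was not tested.

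Glycolytic enzymes and chaperones had such a peak in 5 of 18 genes (27.8%, 12.5 to 50.9). The peak of HSP90B1, the chaperone of the endoplasmic reticulum, had blocks of 44, 120 and 77 bases and a score of 1e-176, and that of CANX (calnexin) had 38, 127, 80 and 115 and a score of 1e-108. The enolase gene ENO1 had 129, 94 and 17 bases with a score of 1e-103. Extracellular matrix and integrin genes had one in 5 of 30 (16.7%, 7.34 to 33.6), the 4 collagens COL6A1, COL6A2, COL7A1 and COL18A1 and the laminin chain LAMB2. DNA replication and repair genes had one in 3 of 21 (14.3%, 4.98 to 34.6), namely MCM3, a subunit of the replicative helicase (score 0), the proliferation marker MKI67 (1e-156) and TOP2A, DNA topoisomerase II (2.5e-83).

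Among genes of the m6A machinery, 18 had a peak and 2 had a multi-exon peak (11.1%, 3.10 to 32.8). ZC3H13, a component of the methyltransferase complex, carried 3, with scores of 0, 1e-274 and 0.00013. HNRNPA2B1, an RNA-binding protein described as an m6A reader, carried 1 with 6 blocks of 20, 81, 198, 120, 123 and 59 bases and a score of 0. Cell surface receptors had one in 3 of 30 (10.0%, 3.46 to 25.6), on PLXNB2, EPHA2 and ROBO1, and SR and splicing proteins in 1 of 20 (5.00%, 0.888 to 23.6), on SRRM1 with a score of 8.1e-10. The intervals of these 5 lists, from the extracellular matrix to the SR proteins, contained the share of all genes. None of the 24 TGF-beta and BMP pathway genes with a peak had a multi-exon peak, and with 24 genes the Wilson interval reaches 13.8%, so a share like that of all genes was not distinguishable.

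Several genes carried more than 1 such peak. After merging of overlapping peaks of a gene, 652 genes held 1 multi-exon peak, 54 held 2 and 9 held 3 or more, and for 211 genes all peaks were of this kind. The 9 genes were all on the minus strand, which held 76.2% of the 715 genes when each was counted once. With 9 genes, no difference from that share is read. MYH9, the non-muscle myosin heavy chain IIA, had 4 among its 6 peaks. These followed each other between 83.3% and 95.6% of the span at distances of 149, 455 and 59 bases, had 4, 5, 6 and 4 blocks from the 5′ side, and scored 1e-192, 0, 1e-219 and 1e-106.

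The MYH9 peaks thus ran nearly end to end over the last part of the gene, and such spacing was found elsewhere. On MYO18A, an unconventional myosin with 4 among 8 peaks, the smallest distance was 59 bases and the others were 2943 and 2882. On its relative MYH10, also with 4 among 9, 3 lay between 76.0% and 89.9% of the span and the fourth, shown above, at the transcript start. Over the 77 pairs of neighbouring multi-exon peaks of a gene the median distance was 4618 bases, and 16 pairs lay within 1000 bases. Genes with 3 were COL7A1 (collagen VII), MAD1L1 (a spindle checkpoint protein), PSIP1 (a chromatin-binding coactivator), SAFB2 (a nuclear scaffold attachment factor) and ZC3H13. For COL7A1 the scores were 4e-16, 3.2e-07 and 0.00017, and for MAD1L1 2e-12, 3.5e-06 and 0.00036, so that repeated peaks were not always strong ones.

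After merging, a score of 0 was shared by 63 multi-exon peaks, so the 6 named by smallest score were the longest of these. Those not yet described were on TAF7, a TFIID subunit with 1550 of 1828 bases in its inner block, REXO1, an RNA exonuclease with 1537 of 1650 bases in its 5′ block, and WAPL, the cohesin release factor with inner blocks of 521 and 1026 bases. All 3 scored 0. The TAF7 peak, merged from 3 listed peaks, reached 54883 bases of gap beyond its second block and was not wholly inside the RefSeq span of the gene. It is therefore uncertain whether its last block of 39 bases belongs to TAF7.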

How the data were processed

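m6A-seq peaks of MDA-MB-231 shNS cells (2 IP and 2 input libraries) were analysed as 1 deposited list. Per the methods, the authors used STAR with GENCODE v33 for alignment and called peaks with exomePeak at default settings, keeping those past thresholds of fold enrichment and FDR. The submitters' processing notes name FastQC, STAR and the build hg38. The score column deposited by the authors was read as a p-value. An FDR is the other reading, since the sources used here name neither. A score of 0 was ranked at a −log10 of 323. The list holds no read counts, so depth is unknown.

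Peaks with at least 3 blocks were kept. The Ensembl ID was matched to a symbol (10103 of 10140) and to the RefSeq gene of the same symbol and chromosome on GRCh38.p14 (9090), which gave the gene class and span. Genes without such a match were not counted as protein-coding, so the counts of protein-coding peaks and genes may be too low. A genome sequence and an exon map were not used here. Start windows came from the RefSeq promoter table. Overlapping peaks of 1 gene and strand were merged from the union of their blocks, which turned 17142 peaks into 16967. The multi-exon peaks numbered 792 on 715 genes before and after. Of the merged ones, 7 joined 2 or more listed peaks, and 2 listed ones fell below 3 blocks. Named peaks and genes, gene lists, collagens and distances used merged peaks, and the other values used listed ones. Overlap meant at least 1 shared base. Shares carry 95% Wilson intervals, which cover counting error only and take peaks as independent. No test was run, because no value per library was listed. The members and lists were chosen with earlier results of these data known.

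Named peaks were the 6 with most blocks, the 6 longest, the 6 of smallest score, the 6 with the longest gap, the smallest score per strand, the peaks of the 6 genes with most such peaks (9 with ties) and up to 4 per list, with ties going to the longer peak. Some of these are not reported here. Alternatives were at least 4 blocks, merging, blocks under 10 bases not counted, the first pass of the list, no opposite-strand overlap, scores at or under the list median, each gene once and spans of at least 10 kb. Functions were tested on simulated data. Python 3.11.15, pandas 2.3.3, numpy 2.4.6, scipy 1.17.1 and matplotlib 3.10.9 were used.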

Additional observations from a re-analysis of the deposited data

How the results depend on the processing

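Of 72 alternative values, 59 stayed close to the reported one and 13 did not, where close meant within the counting interval for shares and medians and within 1.5 times for the counts of peaks and genes. Beside the setting of at least 4 blocks, the counts ranged from 631 to 792 peaks and from 569 to 715 genes. Requiring at least 4 blocks left 216 peaks on 204 genes, with a median 5′ terminal block of 54.0 bases, 2.45% of peaks in the first 10% of the gene and 93.1% at or under the list median score. Keeping scores at or under the list median gave a minus-strand share of 82.1%, median blocks of 68.0 bases (5′ terminal), 67.0 (3′ terminal) and 114 (inner) and 6.73% in the first 10% of the gene. Without blocks under 10 bases the terminal medians were 69.0 and 67.0 bases and the share at or under the list median 83.1%. In these settings inner blocks had a larger median than terminal ones. No paired analysis was possible because the replicates were combined into 1 list, and for the same reason no replicate could be left out. The joining of gaps under 30 bases and the restriction to peaks inside the RefSeq span were chosen after seeing the data. Unknown depth, unknown exon number and the missing spread between replicates limit all values.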

Other observations

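Within the genomic extents of multi-exon peaks lay 9 annotated miRNA hairpins, of which 7 had no base in a block and so fell in the gaps. The hairpin MIR1181 lay with all 81 bases inside a 5-block peak of CDC37, a kinase-directing partner of HSP90, whose blocks were 3, 218, 119, 276 and 41 bases long and whose score was 1e-306. That peak extended past the RefSeq start of CDC37. The mature miRNA from RefSeq (GRCh38.p14, chr19:10403505-10403525, minus strand) is shown with its seed, bases 2 to 8, in capitals, because it is the only hairpin wholly within a block.
hsa-miR-1181: cCGUCGCCgccacccgagccg
MIR7108 shared 20 of its 87 bases with the terminal 3′ block of a 3-block peak of LMNB2, a nuclear lamin, with a score of 2.5e-37. The peaks were called on poly(A) RNA, and reads of a hairpin cannot be told from those of its host gene.

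Another 77 peaks with 3 or more blocks were not assigned to the nuclear protein-coding class. For 53 of them the gene had no RefSeq match, so its class is unknown and may be protein-coding. The others were on long non-coding RNA genes (20), transcribed pseudogenes (3) and a pseudogene (1). All 77 were left out of the 792. They entered none of the comparisons.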
